A study of Mus musculus with 3 samples.

Results

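Cassette exons are internal exons that a cell can either splice into a transcript or leave out whole, and the 1782 described here had a length divisible by 3. They were selected on measured values and on length: both the including and the skipping form had to be listed for the same gene, strand, exon and outer flanks in at least 1 library, and both forms together had to average at least 1 FPKM (fragments normalised for the length of the transcript and the size of the library). Of 12744 exon and flank combinations listed in either form, 3782 met the conditions on level and on both forms. Of these, 1782 were divisible by 3 and are called frame-keeping, and the other 2000 are called frame-shifting. The frame-keeping pairs held 1753 distinct exons at 1406 loci, because some exons were paired with more than 1 set of flanks.

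The RNA came from normal liver of wild-type C57BL/6 mice, an inbred strain, labelled healthy and male. There were 3 libraries in 1 group, called replicates 1, 2 and 3, with no treatment, age or transgene given in the labels. The study concerned mouse liver cancer beside normal liver, and tumour samples were not analysed here. Nothing in the labels says that the libraries came from separate animals, so the spread between them may be partly technical.

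The sex label went against the data in every library. The highest event inside Xist, the RNA that coats the inactive X chromosome of females, was listed at 65.7, 53.9 and 46.4 FPKM in replicates 1, 2 and 3. Of 4 genes of the Y chromosome (Ddx3y, Eif2s3y, Kdm5d and Uty), none had a listed event. The tissue label was met by hepatocyte markers, of which 8 of 9 were listed, with Alb at 25367 to 30592 FPKM. Ttr was not listed. Kupffer cell, endothelial, stellate and cholangiocyte markers were listed at summed levels between 33.9 and 144 FPKM, against at least 48170 for hepatocyte markers. The cholangiocyte sum was 79.2 FPKM in replicate 1 and 33.9 and 37.7 in the others, mostly from Spp1 at 75.5, 31.5 and 35.5 FPKM. The part of these cells in any value below was not tested, since bulk RNA cannot tell fewer cells of a type from less RNA per cell.

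Ribosomes read codons of 3 bases, so an exon whose length is a multiple of 3 can be added or removed without changing how the rest of the message is read. Such an exon inserts or deletes a short run of amino acids and leaves both ends of the protein intact. Skipping of an exon with another length changes every codon downstream and commonly brings in a premature stop codon, which can send the message to nonsense-mediated decay (NMD). In liver the textbook example is exon 11 of the insulin receptor, whose inclusion gives the B form of the receptor.

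The sequences of 12 coding members show what such exons look like, from a single codon in Cyth2 to a run of 23 codons in Tsc2. They were taken from the list of known alternative exons, from the shortest members and from those near equal use of both forms. Capitals mark the cassette exon, and lower case marks 15 bases of the exon before it and 15 bases of the exon after it in the spliced GENCODE M21 transcript, read 5′ to 3′. Coordinates are those of the exon alone, on GRCm38.
Cyth2, chr7:45808730-45808732, minus strand, 3 bases: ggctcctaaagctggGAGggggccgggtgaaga
Sh3glb2, chr2:30346059-30346073, minus strand, 15 bases: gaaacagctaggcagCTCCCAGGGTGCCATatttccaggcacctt
Macf1, chr4:123364057-123364074, minus strand, 18 bases: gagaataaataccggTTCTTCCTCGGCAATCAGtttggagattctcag
Picalm, chr7:90194273-90194296, plus strand, 24 bases: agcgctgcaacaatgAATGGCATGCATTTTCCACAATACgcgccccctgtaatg
Dnm1l, chr16:16318445-16318477, minus strand, 33 bases: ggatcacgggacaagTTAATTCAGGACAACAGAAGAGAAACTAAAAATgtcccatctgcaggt
Insr, chr8:3181702-3181737, minus strand, 36 bases: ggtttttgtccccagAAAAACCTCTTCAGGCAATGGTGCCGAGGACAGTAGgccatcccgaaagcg
Sec31a, chr5:100369596-100369634, minus strand, 39 bases: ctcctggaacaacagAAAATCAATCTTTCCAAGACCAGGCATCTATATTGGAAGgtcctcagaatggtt
Yap1, chr9:7950492-7950539, minus strand, 48 bases: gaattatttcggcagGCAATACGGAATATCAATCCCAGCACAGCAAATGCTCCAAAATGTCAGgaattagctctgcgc
Mbnl1, chr3:60614683-60614736, plus strand, 54 bases: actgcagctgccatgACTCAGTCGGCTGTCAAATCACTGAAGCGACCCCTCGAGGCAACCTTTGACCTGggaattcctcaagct
Lsr, chr7:30962811-30962867, minus strand, 57 bases: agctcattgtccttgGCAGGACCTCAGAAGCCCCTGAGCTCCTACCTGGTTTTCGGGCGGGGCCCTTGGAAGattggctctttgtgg
Ganab, chr19:8907851-8907916, plus strand, 66 bases: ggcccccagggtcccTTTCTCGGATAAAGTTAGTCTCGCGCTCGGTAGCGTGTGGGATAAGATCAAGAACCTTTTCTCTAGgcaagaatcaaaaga
Tsc2, chr17:24601389-24601457, minus strand, 69 bases: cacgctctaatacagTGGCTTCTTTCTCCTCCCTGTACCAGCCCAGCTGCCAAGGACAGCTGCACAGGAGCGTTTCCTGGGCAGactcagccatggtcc

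The 1782 members were spread over the whole range of use. Inclusion is the share of the including form in both forms together, in percent, with a form that was not listed counted as 0, and the value of a pair is its mean over libraries. The median inclusion was 56.4%, with quartiles at 9.73% and 94.2%. Inclusion was 90% or more in 543 members, 10% or less in 451 and between these limits in 788. Both forms were listed in all 3 libraries for 654 members, in 2 for 443 and in 1 for 685. The median level of both forms together was 5.77 FPKM and the median length 96 bases, from 3 to 13458. Of the members, 1656 matched an annotated internal exon of GRCm38 exactly. The condition that both forms be listed left out exons that were always or never included, so these figures describe the members and are no estimate for all exons.

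Close to the limit of 1 FPKM, the values showed how little a low level can fix. Just inside it stood an 87-base exon of Agbl5, with inclusion of 51.6%, 14.0% and 60.6%, an 87-base exon of Cep57l1 with 0%, 99.9% and 0%, and a 96-base exon of Pigx with 1.07%, 0% and 0%. Just outside it stood a 36-base exon of Crem with 100%, 10.6% and 83.3%. A 654-base exon of Dab2 had values of 75.6% and 91.1% in replicates 2 and 3, and a 183-base exon of Zcchc4 had 35.8%, 0% and 0%.

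Most members lay within coding sequence. Their median inclusion was above that of members in 5′ UTRs, in non-coding transcripts or without an annotated exon. In GENCODE M21, 1236 members were wholly coding in a standard protein-coding transcript, and their median inclusion was 77.6%. The 150 members in 5′ UTRs had a median of 19.2%, the 80 in non-coding transcripts 9.27%, and the 126 that matched no annotated exon 14.6%. The 176 members that were partly coding split by which end of the reading frame they held. In 131 of them the exon held the end of a reading frame, with a median inclusion of 4.22%, and 96 of those reading frames belonged to transcripts annotated as NMD targets. In 44 the exon held the start of a reading frame, with a median of 79.0%. For these partly coding exons a length divisible by 3 says nothing about the frame of the whole protein. Frame-shifting exons that held an end or a start had medians of 5.12% (216 pairs) and 80.1% (134 pairs).

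Within coding sequence, frame-keeping exons were included less than frame-shifting ones. Among coding exons the median inclusion of frame-keeping and frame-shifting exons was 83.5% and 99.2% in replicate 1, 81.9% and 99.3% in replicate 2, and 78.7% and 99.0% in replicate 3. The difference was -17.8 ± 2.34 percentage points (SD, n = 3 libraries) and had the same sign in 3 of 3 libraries. In the exact two-sided sign-flip permutation test over libraries p was 0.25, the smallest that 3 libraries allow. Of the 1236 frame-keeping coding exons, 212 were included at 10% or less and 487 at 90% or more. The corresponding numbers for the 966 frame-shifting coding exons were 44 and 656.

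In 5′ UTRs, ahead of the main reading frame, the medians of frame-keeping and frame-shifting exons lay close together. They were 11.02% and 8.13% in replicate 1, 16.4% and 16.7% in replicate 2, and 14.2% and 13.7% in replicate 3. The difference of 1.01 ± 1.66 points (SD, n = 3 libraries, 150 and 278 pairs) was smaller than its spread, with an exact sign-flip permutation p of 0.50, and its sign turned without replicate 2 (-2.53 points) and under other alternatives. Over all qualifying pairs the difference was -19.6 ± 3.44 points (SD, n = 3 libraries), also with an exact sign-flip permutation p of 0.25. With both forms required in every library, the difference over all pairs shrank to -7.05 points and that over coding exons widened to -27.7 points.

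**Figure D1:**
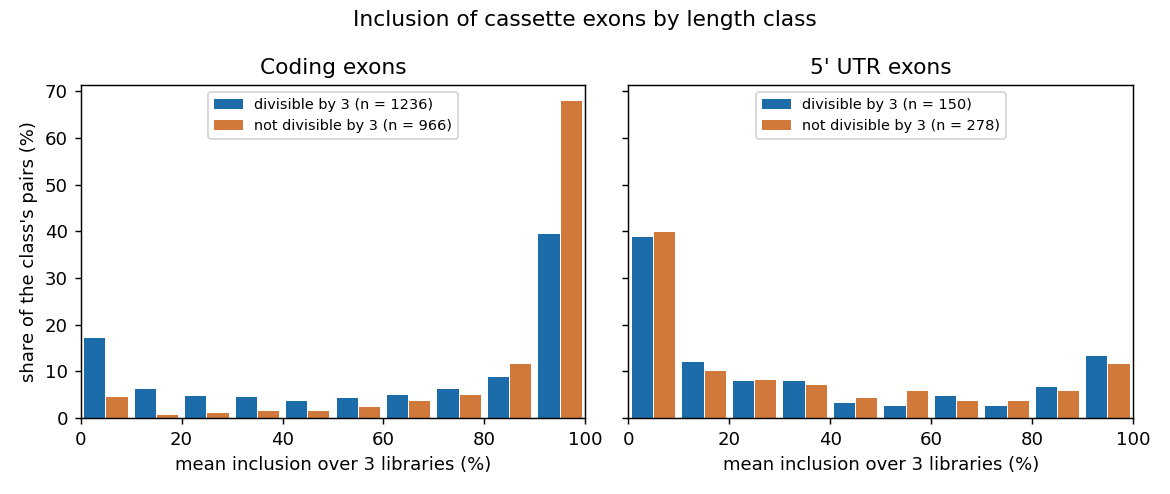
Share of pairs (y, percent of each class) by mean inclusion over the 3 libraries (x, percent, in bins of 10 points) for exons with a length divisible by 3 (blue) and other lengths (orange), in coding sequence on the left and in 5′ UTRs on the right. Of the coding exons, 39.4% of the frame-keeping and 67.9% of the frame-shifting pairs fell in the highest bin, while the bars of 5′ UTR exons lie close together.

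The share of exons with a length divisible by 3 rose as inclusion fell, within coding sequence. Of coding cassette exons included at 90% or more, 42.6% were frame-keeping (487 of 1143), close to the 41.1% of all 165378 annotated internal coding exons. Of those included between the limits it was 66.9% (537 of 803), and of those included at 10% or less 82.8% (212 of 256). In the 3 single libraries the share at 10% or less was 82.9%, 82.1% and 82.6%, and at 90% or more it was 45.3%, 44.5% and 43.9%. The difference between these ends was 37.9 ± 0.59 points (SD, n = 3 libraries) and had 1 sign in 3 of 3 libraries, with the smallest possible exact sign-flip permutation p of 0.25. In bins of 20 points the share among coding exons fell from 85.3% at the lowest inclusion through 81.4%, 72.3% and 62.6% to 43.6% at the highest.

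Part of this slope moves with how exons are annotated. Of the 216 frame-shifting exons that held the end of a reading frame, 173 did so in a transcript annotated as an NMD target, and all of them counted as partly coding. With every exon that had any coding bases, the share was 57.9% at 10% or less (297 of 513), 59.6% between (604 of 1013) and 41.4% at 90% or more (512 of 1238). The difference between the ends was then 16.6 ± 0.82 points (SD, n = 3 libraries), less than with wholly coding exons and of the same sign in each library. In 5′ UTRs the shares were 34.3%, 34.8% and 38.5% from the lowest to the highest class, and the difference between the ends was -5.11 ± 2.25 points.

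**Figure D2:**
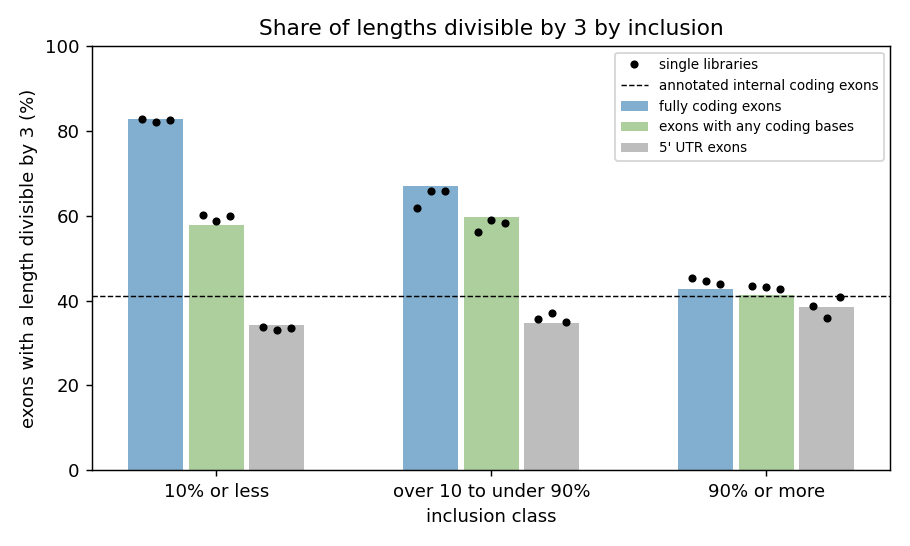
Share of cassette exons with a length divisible by 3 (y, percent) in 3 classes of inclusion (x). Bars use mean inclusion over libraries and dots the inclusion in each single library, for wholly coding exons (blue), exons with any coding bases (green) and 5′ UTR exons (grey); the dashed line is the 41.1% of annotated internal coding exons. Wholly coding exons stand at 82.8%, 66.9% and 42.6%, and 5′ UTR exons between 34.3% and 38.5%.

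Short members were included least. Microexons, exons of 27 bases or less that are best known from neurons, made up 63 of the 1782 members (3.54%), against 20 of the 2000 frame-shifting pairs (1.00%). The 58 coding frame-keeping microexons had medians of 21.7%, 16.7% and 23.0% in replicates 1, 2 and 3. Frame-keeping coding exons of 28 to 60 bases had medians of 36.8%, 42.7% and 41.7% (250 pairs), and those of 61 to 90 bases 85.6%, 78.4% and 73.4% (287 pairs). From 91 bases on the median in each library was above 90%. Frame-shifting coding exons of 28 to 60 bases, by contrast, had medians of 99.6%, 98.7% and 98.6% (120 pairs), above those of frame-keeping exons of that length in every library. The 13 frame-shifting coding exons of 27 bases or less had lower medians, 53.5%, 64.0% and 94.2% in replicates 1, 2 and 3. The shortest class was thus the lowest in both kinds.

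**Figure D3:**
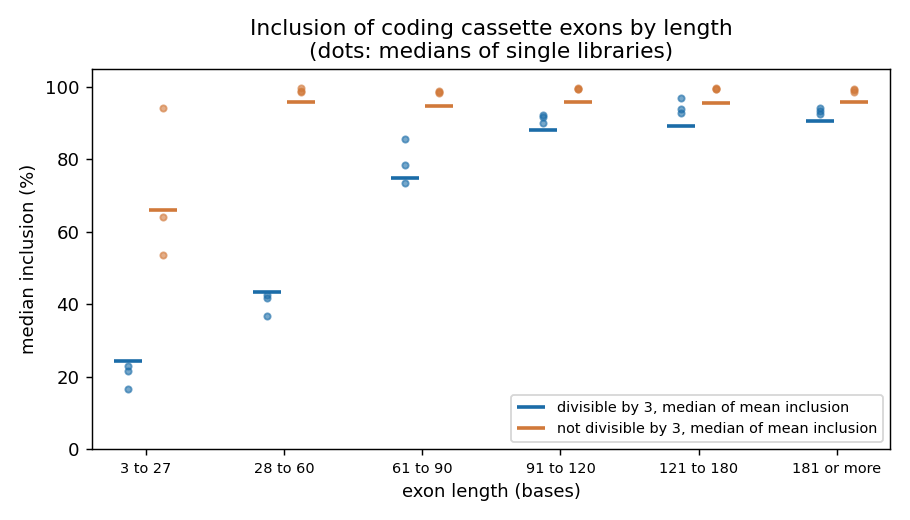
Median inclusion (y, percent) of coding cassette exons by exon length (x, bases) for lengths divisible by 3 (blue) and other lengths (orange). Lines are medians of the mean inclusion over libraries and dots the medians of single libraries, which count a form that was not listed as 0; among frame-keeping exons the lines climb from 24.5% at 3 to 27 bases to 90.7% at 181 bases or more.

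The 4 members under 18 bases were near-absent or minor forms in these libraries, while those of 18 bases ranged widely. Cyth2 encodes cytohesin 2, an exchange factor for ARF GTPases, and its 3-base exon adds 1 codon. The including form was listed in replicate 1 only, at 0.074 FPKM, against 4.71 FPKM for the skipping form there, an inclusion of 1.55%. A 6-base exon of Nsmf reached 0.10% in replicate 1 and was not listed in the others, and a 12-base exon of Commd6 reached 0.02% in replicate 1 only. The 15-base exon of Sh3glb2, an endophilin, was included at 0%, 29.6% and 14.3%. Among the 13 members of 18 bases, mean inclusion ran from 0.045% to 89.7% and was above 50% in 3, Dst, Trappc13 and Macf1, of which the first 2 were picked after their values were seen. The Anxa6 exon, in a calcium-dependent membrane binding annexin, had the highest level of the 13, 36.1 FPKM for both forms, with inclusion of 22.4%, 15.96% and 25.2%. In each library its skipping form was the higher one. An 18-base exon of Ctnnd1, a catenin of cell junctions, was included at 0%, 35.5% and 68.1%, with no common order of the forms.

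The longest members included cassettes without an annotated exon. Cassettes of 13458 bases at Cyp2d37-ps and of 9324 bases at Mup-ps16, both pseudogenes in families of near-identical copies, matched no annotated exon and had both forms listed in 1 library. A 4530-base cassette of Cep85 also matched none, with inclusion of 72.9%, 0% and 0%. The 5772-base exon of Tcf20, which was partly coding, and the 3804-base exon of Mprip were annotated. Mprip, which binds myosin phosphatase, included its long exon at 0.89%, 1.25% and 3.47%, low in every library.

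Coding members differed in sequence from annotated coding exons of divisible length in where they cut codons. Among 1213 distinct coding frame-keeping exons with a sequence, 46.1% began between codons, 37.8% after the first base of a codon and 16.1% after the second. The shares among 67920 annotated internal coding exons of divisible length were 56.0%, 31.0% and 13.0%. The exons of Macf1, Picalm, Dnm1l, Yap1 and Mbnl1 printed above begin between codons, those of Cyth2, Sec31a, Lsr and Tsc2 after the first base, and those of Sh3glb2, Insr and Ganab after the second. Members began with G in 40.1% of cases, against 48.4% of the annotated exons, while the share that ended with G was 79.8% against 80.8%. Median GC content was 51.0% in both sets. Of the 12 printed exons, GC content was lowest in Dnm1l at 27.3% and highest in Cyth2 and Sh3glb2 at 66.7%.

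Serine and proline codons were more frequent in the members than in annotated exons of divisible length. Serine codons made up 10.1% of 49532 codons, against 8.29%, and proline codons 7.34% against 5.99%. Codons for hydrophobic residues made up 32.1% against 34.2%. By inclusion, serine codons were 11.5% in coding members included at 10% or less, 10.7% in those between and 8.93% in those at 90% or more. Frame-shifting coding exons held 8.30% serine codons in all, with 9.71% in those included at 10% or less (44 exons) and 7.94% in those at 90% or more, so the order by inclusion was the same in both kinds. Proline codons made up 9.10% of those 44 exons, beside 7.54% in members included at 10% or less. These shares pool codons of all exons of a set and describe the exons listed, with no test.

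The 15 members with the highest level lay in genes such as Trf, Cyp2e1, Mgst1 and Selenop, and in several of them 1 form carried nearly all of the signal. In Cyp2e1, the ethanol-inducible cytochrome P450, the 177-base exon was included at 100% in each library, and the skipping form was listed at no more than 0.0051 FPKM beside about 2124 FPKM for both forms. A 132-base exon of Scp2, a sterol carrier, stood at 99.9% in each library. Skipping dominated in Ces1c, a carboxylesterase, whose 27-base exon was listed in replicate 2 only. Skipping also dominated in Mgst1, a glutathione transferase, whose partly coding 108-base exon was included at 2.20%, 1.91% and 2.01%. Each of these 4 exons spanned less than 1 point. Carboxylesterase genes have near-identical copies among which reads can be split, so values for Ces1c and for Ces3a below are uncertain.

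A few abundant liver transcripts had a sizeable minor form. In Asgr1, a subunit of the asialoglycoprotein receptor, the 87-base exon was included at 87.9%, 89.98% and 89.1%. In Ces3a, a carboxylesterase of the endoplasmic reticulum, the 141-base exon was included at 73.2%, 78.8% and 78.4%. The 93-base exon of Lgals9, galectin 9, was included at 78.4%, 74.4% and 77.6% with 180 FPKM for both forms. All 3 exons kept the skipping form below the including form in every library. In Trf, the plasma iron carrier and the member with the highest level, an unannotated 30-base exon was listed in replicate 3 only, at an inclusion of 32.7%, so that value rests on 1 library.

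Of 60 genes on a list of known in-frame alternative exons, 44 held a member, with 81 pairs in all. Their median inclusion was 35.9%, against 56.4% over all members, and the 29 frame-shifting pairs in the same genes had a median of 86.8%. Of the 81 pairs, 78 were wholly coding, with a median of 35.2%, beside 77.6% over all wholly coding members. Both forms were listed in all 3 libraries for 42 of the 81, and 32 of these were included between 10 and 90%. The list was drawn up from genes known for such exons, so a share of mid-range values is no independent result.

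In the insulin receptor, Insr, the including form of the 36-base exon was listed at 11.3, 12.1 and 15.5 FPKM. The skipping form was listed in replicate 1 only, at 0.44 FPKM, so inclusion was 96.3%, 100% and 100%. The B form therefore made up nearly all of the signal in every library. The 267-base Fgfr2 exon, in a fibroblast growth factor receptor, was included at 99.6%, 83.6% and 0.27%, at a mean of 2.52 FPKM. Its skipping form had the same FPKM as the including form of the neighbouring 78-base exon, 0.0038, 0.49 and 3.62. The percentages therefore cover only transcripts with those flanks. They leave out the form that skipped both exons, listed at 7.10, 4.33 and 5.19 FPKM. In Fn1, which encodes the plasma fibronectin that hepatocytes secrete, the 270-base exon was listed at 0.0043 FPKM in replicate 2 and nowhere else, beside 157, 199 and 213 FPKM for the skipping form. The 54-base exon of Clta, a clathrin light chain, was likewise listed in 1 library, at 0.0051 FPKM, beside 70.8 FPKM for the skipping form there.

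Both forms were present side by side in several signalling and membrane genes. In Tsc2, tuberin, which restrains the growth kinase mTOR, the 69-base exon was included at 55.6%, 50.5% and 46.7%. The 57-base exon of Lsr, the lipolysis-stimulated lipoprotein receptor, was included at 56.9%, 46.3% and 54.3%. Its skipping form had the same FPKM as the including form of the neighbouring 147-base exon, 18.4, 21.7 and 22.8, so these members share transcripts. That 147-base exon was included at 99.7% or more in each library. In Numb, a Notch pathway adaptor, the 147-base exon was included at 24.7%, 28.6% and 32.5%, and in Pkp4, a junction protein, the 129-base exon at 26.3%, 21.998% and 27.2%. None of these 4 mid-range exons, of Tsc2, Lsr, Numb and Pkp4, spanned more than 10.6 points.

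Yap1, the growth-promoting effector of the Hippo pathway, gave a wider span for its 48-base exon. The including form was at 3.32, 8.54 and 7.44 FPKM and the skipping form at 7.36, 6.61 and 3.08 FPKM. Inclusion was thus 31.1%, 56.4% and 70.7%, with skipping ahead in replicate 1 and inclusion ahead in the others.

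Organelle and trafficking genes covered the same range. In Dnm1l, the dynamin-like GTPase that divides mitochondria, the 33-base exon was included at 23.7%, 24.2% and 32.0% with 1 pair of flanks. With its forms summed over all flanks, its mean was 37.8%, beside 26.6% for that pair. In Opa1, which fuses the inner mitochondrial membrane, the 54-base exon was included at 3.77%, 10.5% and 8.55% and the 111-base exon at 71.7%, 92.3% and 69.5%. The skipping form of the 54-base exon was ahead in every library, and the including form of the 111-base exon in every library. In Ganab, the catalytic subunit of glucosidase II in the endoplasmic reticulum, the 66-base exon was included at 31.9%, 33.1% and 35.3%. Picalm, a clathrin assembly protein, included its 24-base exon at 99.6%, 99.6% and 98.0%, while its 150-base exon was at 4.58%, 86.0% and 12.2%. Sec31a, a coat subunit of vesicles that leave the endoplasmic reticulum, held 5 members, with the 39-base exon printed above at 57.4%, 32.0% and 40.4% and a 93-base exon at 0.10%, 1.63% and 1.47%.

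Among cytoskeletal linkers and splicing regulators of the known list, spans ran from narrow to wide. The 18-base exon of Macf1, a microtubule and actin crosslinker, was included at 58.2%, 64.7% and 65.3%, a narrow span. The 54-base exon of Mbnl1, a splicing regulator, was included at 92.8%, 13.1% and 35.5%, and in its paralogue Mbnl2 the 54-base exon was at 14.2%, 32.1% and 61.6%. The libraries stood in different orders in the 2 genes. The 60-base exon of Sptan1, a spectrin, was included at 16.9%, 92.3% and 3.78%, high in replicate 2 only.

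**Figure D4:**
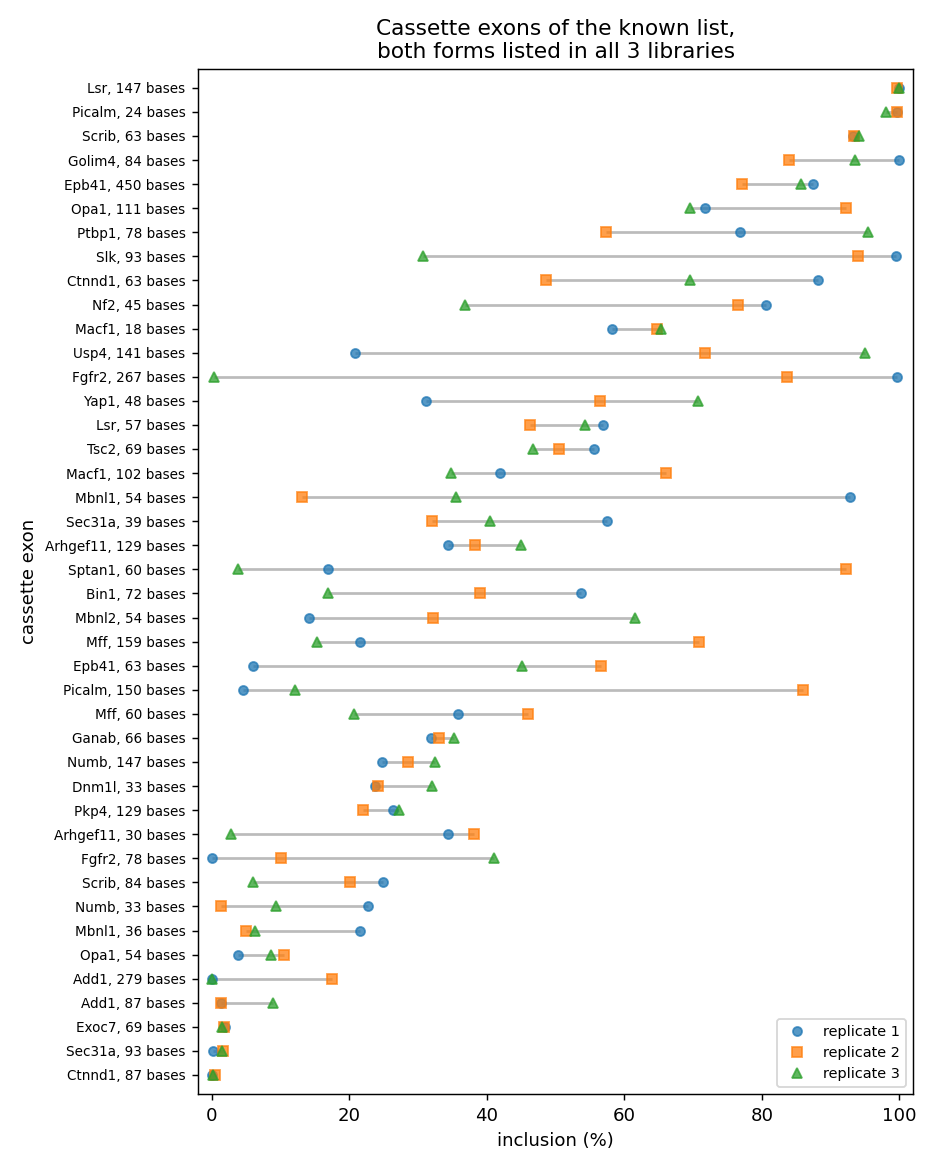
Inclusion (x, percent) of the 42 members of the known list with both forms listed in all 3 libraries (y, gene and exon length), with 1 symbol per library and a grey line from the lowest to the highest. Lsr 147 bases and Ctnnd1 87 bases lie at the ends with spans of 0.30 and 0.40 points, while Fgfr2 267 bases spans 99.3 points.

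In broader functional lists, the median inclusion of members differed from list to list. The number between 10 and 90% was 36 of 52 for the cytoskeleton, 24 of 48 for vesicle traffic and 13 of 27 for signalling. It was 29 of 45 for transcription and 8 of 21 for liver metabolism, beside 788 of all 1782 members (44.2%). Among genes of the cytoskeleton and adhesion, 34 of 63 held a member, and their 52 pairs had a median inclusion of 43.4%, beside 10 frame-shifting pairs at 93.6%. Endocytosis and vesicle traffic had 48 members in 29 of 66 genes with a median of 32.1%, beside 24 frame-shifting pairs at 69.9%. Insulin and growth factor signalling had 27 members in 19 of 50 genes at 61.2%, beside 12 at 79.7%. Transcription and chromatin genes had 45 members in 32 of 72 genes at 56.1%, beside 32 frame-shifting pairs at 52.5%. Liver metabolism and plasma protein genes had 21 members in only 15 of 112 genes at 74.0%, beside 18 at 67.3%. The corresponding medians over all pairs were 56.4% for frame-keeping and 73.6% for frame-shifting exons. Most members of these lists were wholly coding, such as 50 of the 52 of the cytoskeleton. Over all wholly coding members the median was 77.6%. Lists overlap and were not tested against other genes.

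Splicing factor genes held more frame-shifting than frame-keeping pairs, 62 against 34, which made 35.4% divisible by 3, beside 47.1% over all qualifying pairs. Their frame-keeping pairs had a median of 36.3% and their frame-shifting pairs 22.5%. Of the 34, 23 were wholly coding, with a median of 45.6%, beside 77.6% over all wholly coding members. Over all qualifying pairs the share divisible by 3 was 56.1% in coding sequence and 35.0% in 5′ UTRs. The part of this mix in the share of the list was not tested. The 3 splicing factor members with the highest level encode heterogeneous nuclear ribonucleoproteins, which bind nascent RNA. The 120-base exon of Hnrnpa2b1 was included at 66.8%, 62.2% and 72.4%, the 141-base exon of Hnrnpab at 35.9%, 49.3% and 51.5%, and the 72-base exon of Hnrnpk at 64.5%, 62.4% and 66.9%. Both forms of each were above 10 FPKM in every library.

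How far the libraries agreed differed with the level. Across the members with a value in both libraries (n = 1713 to 1756 exons), inclusion correlated between libraries with Pearson's r of 0.814 to 0.823. For 461 members with both forms in all libraries and at least 5 FPKM it was 0.861 to 0.881. Exons are not independent replicates, and neighbouring exons share transcripts. Of 1706 members with a value in all 3 libraries, 610 (35.8%) spanned more than 20 points between the highest and the lowest, beside 34.5% of all 3623 such pairs, so the members were near the background. Without replicate 3, 1509 members qualified, and 395 spanned that much between the 2 libraries left. Most of the 610 were intermediate exons. Of 730 members between 10 and 90%, 555 (76.0%) spanned more than 20 points, with a median span of 35.9 points. The counts were 27 of 441 at 10% or less (6.12%) and 28 of 535 at 90% or more (5.23%). Frame-shifting pairs gave 79.1% between the limits. Class and span come from the same 3 values. A mean at either end limits the span, and a switch between libraries moves the mean to the middle. The shares by class are therefore partly fixed in advance and are only a description. Of the better measured pairs, 135 of 461 members (29.3%) and 27.8% of all 900 spanned more than 20 points. The median span among frame-keeping pairs was 38.3 points at 1 to under 2 FPKM, 19.0 at 2 to under 5, 9.60 at 5 to under 20 and 2.12 at 20 FPKM or more. Among the 610, the library farthest from the other ones was replicate 1 in 220, replicate 2 in 190 and replicate 3 in 200.

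**Figure D5:**
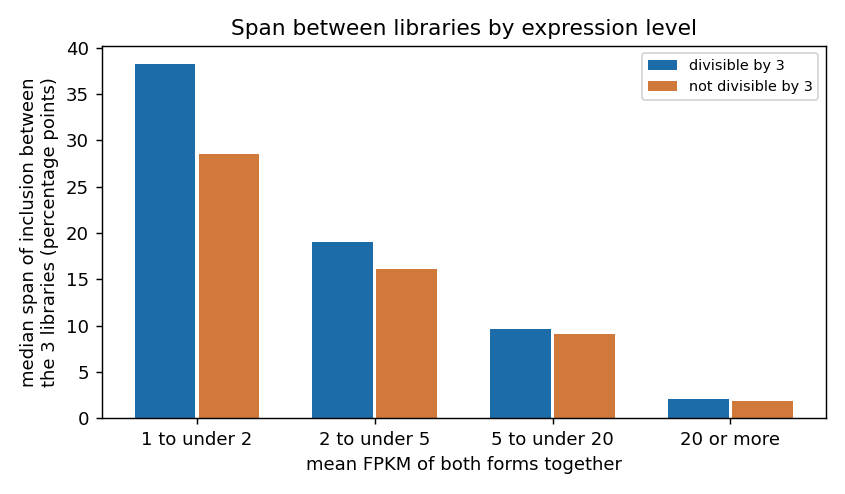
Median span of inclusion between the highest and the lowest of the 3 libraries (y, percentage points) by mean FPKM of both forms together (x), for exons with a length divisible by 3 (blue) and other lengths (orange). The frame-keeping bars fall from 38.3 points at 1 to under 2 FPKM to 2.12 points at 20 FPKM or more.

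The widest spans at 5 FPKM or more, among members with both forms listed in all 3 libraries, were near-complete switches between libraries. In Eif4h, a translation initiation factor, the including form of the 60-base exon was at 14.8, 17.0 and 1.25 FPKM and the skipping form at 10.1, 1.02 and 13.4 FPKM. Inclusion was thus 59.3%, 94.4% and 8.51%, lowest in replicate 3. A partly coding 153-base exon of Aldoa, an aldolase, was included at 89.2%, 81.7% and 4.15%, low in replicate 3 only. A 78-base exon of R3hdm2 was included at 76.8%, 0.18% and 93.5%, but both its forms together were under 1 FPKM in replicate 3. Exons of Sbno1, Snrk, Sorbs2 and Smarca2 were also among the 10 widest, as were those of Picalm and Sptan1 given above, and each of the former 4 spanned more than 80 points.

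Other members held an intermediate ratio within a few points. In Csnk1d, a casein kinase of the circadian clock, the partly coding 63-base exon was included at 77.8%, 77.6% and 77.8%. Its span was 0.27 points. In App, the amyloid precursor protein, the 57-base exon was included at 58.5%, 60.3% and 58.3%, and the 54-base exon, farther downstream, at 58.5%, 42.2% and 43.9%. In replicate 1 the 2 App exons had the same FPKM in both forms. In replicates 2 and 3 the skipping form of the 54-base exon matched the including form of the 57-base exon, at 10.1 and 11.1 FPKM. The values of the 2 exons are therefore not separate measurements in any library. The 24-base exon of Csnk1g3, another casein kinase, was included at 21.04%, 20.7% and 22.1%, and the 147-base exon of Gak, a clathrin-uncoating kinase, at 67.6%, 71.1% and 67.8%. These exons were picked for a small span, so their closeness is a description.

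Most genes held a single member. There was 1 member in 1131 genes, 2 in 210, 3 in 53 and 4 in 12. Mff, a mitochondrial fission factor, and Sec31a held 5 each, and Slmap, a tail-anchored membrane protein, held 6. In Mff the 60-base exon was included at 35.8%, 45.9% and 20.7% with its better measured flanks. With another pair of flanks the same exon was at 100%, 31.5% and 100%, and the skipping form was listed in replicate 2 only. Replicate 2 was thus the highest with the former flanks and the lowest with the latter. The mean of the exon was 34.1% with the former flanks and 77.2% with the latter.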

How the data were processed

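Each library came as 1 table of splicing events with an FPKM value, which the authors computed from assembled transcripts, per the file headers and values, with a tool that no source used here names. HISAT2 2.0.1, cutadapt 1.9.1, DESeq2 and HTSeq 0.6.1 appear in the submitters' processing notes without a role, as does the build mm9. The positions matched GRCm38 instead: 92.9% of members coincided with an internal exon of GENCODE M21, and 0 did so after a shift of 1000 bases. Identical rows were removed (1440 to 1519 per library), leaving 71716 to 74243 events, of which 6726 to 7254 were exon inclusions and 6262 to 6799 were skips. The lowest listed value was 1e-06 FPKM, zeros were not listed and no counts were given, so depth is unknown. Each event carried a strand, which was used in pairing and in matching to annotated exons. Whether reads were counted by strand is not given, so reads of an antisense partner may be part of a value.

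Inclusion was 100 × ON/(ON + OFF) with no pseudocount. The only test was the exact two-sided sign-flip permutation test over 3 libraries, which cannot go below 0.25. The pairing was checked on simulated tables. Python 3.11.15, pandas 2.3.3, numpy 2.4.6 and matplotlib 3.10.9 were used. Exons were placed by GENCODE M21, and exon sequences came from its transcripts. Intron motifs and splice site dinucleotides, which need a genome sequence, were not computed.

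Members and lists were chosen with earlier results of these data known. Named exons were the 15 highest by level, those of the known list, the 10 closest to 50%, the 10 widest and 10 narrowest in span, the 5 shortest, the 5 longest, the top 3 of each other list and 3 on each side of the level limit. Those closest to 50%, widest and narrowest had at least 5 FPKM. The widest and narrowest also had both forms listed in all 3 libraries, and the narrowest a mean of 20 to 80%. Not all are described: from the known list mainly those with both forms in all libraries are named. An item withheld for evaluation is not reported here. Alternatives were another or no level limit, both forms in every library, 1 pair per exon, summed FPKM, 0.1 FPKM added to each form, and each library left out. Splits by coding, any coding and 5′ UTR sequence and by inclusion class were added after the data had been seen.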

Additional observations from a re-analysis of the deposited data

How the results depend on the processing

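The number of members was 985 with a minimum of 5 FPKM and 654 with both forms in every library. The median inclusion was 53.9% with no minimum, 51.5% with 5 FPKM, 54.1% with both forms in every library and 52.2% to 60.02% without 1 library. The share included at 90% or more was 28.2%, 34.8% and 22.5% under the same 3 settings, 28.002% with 0.1 FPKM added and 28.9% to 30.1% without 1 library. The share at 10% or less was 30.3% with 5 FPKM, 15.6% with both forms in every library, 22.7% with 0.1 FPKM added and 23.3% to 24.6% without 1 library. The difference in medians over all pairs stayed negative under all alternatives run, from -7.05 to -25.4 points, and was -13.1 to -22.5 points without 1 library; over coding exons it ran from -12.7 to -27.7 points. In 5′ UTRs it turned to -0.26 points with no minimum and -1.78 with both forms in every library, and ran from -2.53 (without replicate 2) to 3.44 points (without replicate 3). The share divisible by 3 was 46.4% with no minimum, 47.96% with 5 FPKM, 51.2% with both forms in every library and 47.3% to 48.01% without 1 library; over coding exons it was 63.7% with both forms in every library and 56.2% to 58.0% without 1 library, and in 5′ UTRs 37.6% with 5 FPKM. Members spanning over 20 points numbered 223 with 5 FPKM, 245 of 654 with both forms in every library and 395 (without replicate 3) to 425 without 1 library, where a span has fewer values. The base differs between these settings, so a lower count is not by itself a smaller share. At 5 to under 20 FPKM the share was 26.6%, beside 24.1% of frame-shifting pairs, and at 20 FPKM or more 13.7% beside 12.5%. No paired analysis was possible because there is only 1 group. Of the named exons, 26 moved beyond their spread between libraries with 0.1 FPKM added and 116 did not. The causes were not tested. With depth unknown, a form listed near 0 cannot be told from one not detected.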
